A study of Mus musculus with 8 samples.

Results

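The 9 genes described here make, sense and remove retinoic acid, and were taken by gene symbol from a deposited table of 53801 genes measured in mouse small intestine. All 9 were found, and all 9 passed the filter on low counts that left 15643 genes for testing. Of them, 4 act in synthesis (Rdh10, Aldh1a1, Aldh1a2 and Aldh1a3), 1 reverses the first step (Dhrs3), 3 encode receptors (Rara, Rarb and Rarg) and 1 encodes a degrading enzyme (Cyp26b1). The libraries were made from YFP+ stromal cells that lacked the leukocyte marker CD45 and the endothelial marker CD31. These cells were sorted from mice labelled LTBRfloxedPDGFRa/YFP, in which the lymphotoxin β receptor gene is floxed. Sorting on PDGFRα, a platelet-derived growth factor receptor at the surface of many fibroblasts, gave 4 libraries without it (PDGFRα-) and 4 with it (PDGFRα+), each group numbered 1 to 4. YFP and the floxed allele are common to both groups, and a group without them was not analysed here. The driver of the reporter, the age of the mice and whether each library is a separate mouse are not stated in the labels, so the spread between libraries may be partly technical.

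Retinoic acid is made from vitamin A. RDH10 oxidizes retinol to retinaldehyde, DHRS3 turns retinaldehyde back into retinol, and the retinaldehyde dehydrogenases ALDH1A1, ALDH1A2 and ALDH1A3 oxidize retinaldehyde to retinoic acid, which CYP26 enzymes break down. Retinoic acid binds the receptors RARα, RARβ and RARγ, which sit with RXR partners on DNA at direct repeats of a short motif. In the gut, retinoic acid made by epithelium, dendritic cells and stroma is known for giving lymphocytes their gut-homing receptors.

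Total counts per library, in units of 1000000, were 12.9 to 35.1. Surface PDGFRα was the sort criterion, and its RNA gave no check of the labels, since Pdgfra stood at 652 ± 124 CPM in PDGFRα- and 597 ± 69.2 CPM in PDGFRα+ libraries (mean ± SD, n = 4 each), a log2 difference of -0.13 ± 0.17 SE (edgeR adjusted p = 0.971). CPM is the count per 1000000 of the library size after TMM scaling. The 7 fibroblast markers were abundant in every library, summing to 118100 to 167400 CPM in PDGFRα- and 87720 to 113200 CPM in PDGFRα+ libraries. By edgeR with group as the only term, 0 of the 7 were lower. With the replicate number as a further term 3 were lower, against 0.933% of all tested genes. These were the collagen genes Col1a1, Col1a2 and Col3a1, which made up most of the sum. Pdgfra, Pdgfrb, Dcn and Lum overlapped between the groups. The 8 leukocyte markers summed to 36.8 to 131 and 31.9 to 69.0 CPM, and the 5 dendritic cell markers to 7.44 to 27.4 and 14.1 to 27.9 CPM. The 6 endothelial markers summed to 49.5 to 146 CPM in PDGFRα+ libraries and to 78.7 to 490 CPM in PDGFRα- libraries, where library 4 was the highest. Epithelial, glial and mesothelial marker sums stayed at or below 24.5 CPM. The 5 smooth muscle markers summed to 323 to 1634 CPM in PDGFRα- and 410 to 1316 CPM in PDGFRα+ libraries. In the same order, the 4 pericyte markers summed to 750 to 1513 and 671 to 1182 CPM, most of it Rgs5. The 3 markers of interstitial cells of Cajal summed to 7.12 to 33.2 and 13.8 to 37.4 CPM. The pericyte marker Cspg4 averaged 32.9 and 73.0 CPM without overlap (edgeR adjusted p = 0.113, and 0.0402 with the replicate number as a further term). Rgs5, Kcnj8 and Notch3 overlapped between the groups. In bulk libraries such as these, fewer cells of a type and less RNA per cell cannot be told apart. The main test is edgeR's quasi-likelihood test with group as the only term. A second fit adds the replicate number as a block and is given beside it, because the authors' own comparison used that number.

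Promoter sequences are shown for the receptor genes Rarb and Rarg and for Aldh1a2. Rarb is known to be induced by retinoic acid through a direct repeat in its promoter. Rarg and Aldh1a2 were taken because their CPM did not overlap between the groups, though neither passed by edgeR with group only. RefSeq windows on GRCm38.p6, from 250 bases before to 50 after a transcript start, were matched for 7 of the 9 genes (14 windows), and Aldh1a3 and Rdh10 were not matched. A direct repeat with a spacer of 5 bases (DR5) was searched on both strands as 2 copies in tandem of a 6-base motif, which was AGGTCA or one of its variants, that is AGTTCA or else GGTTCA or else GGGTCA. It was found in 1 member window, that of Rarb, and in 32 of all 32851 windows (0.0974%). The Rarb window lies at chr14:16575427-16575726 on the minus strand, with the element in capitals, from base -53 to -37 relative to the start.
Rarb promoter: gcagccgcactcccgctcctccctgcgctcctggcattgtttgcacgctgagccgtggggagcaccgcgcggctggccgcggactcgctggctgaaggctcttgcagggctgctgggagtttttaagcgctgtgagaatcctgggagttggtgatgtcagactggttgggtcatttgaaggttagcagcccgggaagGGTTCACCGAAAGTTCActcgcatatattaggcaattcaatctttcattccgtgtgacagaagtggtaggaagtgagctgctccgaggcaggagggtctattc
Of 53 other retinoid genes with a window, 1 held a DR5, Cyp26a1, which encodes another retinoic acid hydroxylase and had 0 counts in all 8 libraries. With the motif copies in capitals and the spacer in lower case, the elements read as follows, each on the strand that carries it.
Rarb element: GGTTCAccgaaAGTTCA
Cyp26a1 element: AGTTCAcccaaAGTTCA
The Rarg window shown, at chr15:102257473-102257772 on the minus strand, held no DR5 and a single AGGTCA on the opposite strand, read here as its reverse complement in capitals. Another Rarg window, at chr15:102246451-102246750, held none of the 4 motifs and is not shown. AGGTCA alone occurred in 2 member windows (1 of Rara and 1 of Rarg) and in 16.3% of all windows.
Rarg promoter: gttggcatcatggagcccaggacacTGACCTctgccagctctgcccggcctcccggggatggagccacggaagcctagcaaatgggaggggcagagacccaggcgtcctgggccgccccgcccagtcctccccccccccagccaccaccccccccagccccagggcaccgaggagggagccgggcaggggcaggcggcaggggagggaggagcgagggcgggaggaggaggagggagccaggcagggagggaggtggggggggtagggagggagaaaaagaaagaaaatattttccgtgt
The Aldh1a2 window, at chr9:71215539-71215838 on the plus strand, held none of the 4 motifs.
Aldh1a2 promoter: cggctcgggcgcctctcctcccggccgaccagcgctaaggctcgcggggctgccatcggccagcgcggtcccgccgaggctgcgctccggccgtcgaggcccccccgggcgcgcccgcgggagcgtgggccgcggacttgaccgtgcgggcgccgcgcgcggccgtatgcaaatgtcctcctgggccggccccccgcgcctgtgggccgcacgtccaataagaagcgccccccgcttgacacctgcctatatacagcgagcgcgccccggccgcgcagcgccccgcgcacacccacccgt
A direct repeat with a spacer of 2 bases (DR2), searched with the same motifs, was in 0 member windows and in 0.268% of all windows. A match is a match of letters and not a measured binding site.

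Among synthesis genes, Aldh1a2, Aldh1a3 and Rdh10 stood higher in every PDGFRα+ library than in any PDGFRα- library, and Aldh1a1 did not. Aldh1a3 (ENSMUSG00000015134, chr7:66390890-66427517, minus strand) stood at 168, 188, 137 and 84.7 CPM in PDGFRα- libraries 1 to 4 and at 375, 460, 351 and 214 CPM in PDGFRα+ libraries 1 to 4. The groups did not overlap, and library 4 was the lowest of both groups. The mean was 145 ± 44.9 against 350 ± 102 CPM, a 2.42-fold difference (log2 1.28 ± 0.26 SE, 95% interval 0.70 to 1.85, edgeR adjusted p = 0.0789). With the number as a block the gene rose 2.43-fold (log2 1.28 ± 0.11 SE, edgeR adjusted p = 1.38e-05). The ratio of PDGFRα+ to PDGFRα- was close to constant over the same-numbered libraries, at 2.23, 2.46, 2.55 and 2.52, while the level itself differed between numbers (edgeR adjusted p = 0.00282 for the number). The group-only test passed the threshold when PDGFRα+ library 4 was left out (log2 1.46, edgeR adjusted p = 0.0234).

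Aldh1a2 (ENSMUSG00000013584, chr9:71215789-71296243, plus strand) encodes the retinaldehyde dehydrogenase that supplies most retinoic acid in the mouse embryo. It stood at 150, 177, 140 and 177 CPM in PDGFRα- libraries 1 to 4 and at 196, 360, 306 and 267 CPM in PDGFRα+ libraries 1 to 4. The groups did not overlap, and PDGFRα+ library 1 lay closest to the PDGFRα- range. Means were 161 ± 19.0 and 282 ± 69.1 CPM, a 1.75-fold difference (log2 0.81 ± 0.19 SE, 95% interval 0.41 to 1.21, edgeR adjusted p = 0.116). The gene rose 1.72-fold with the block (log2 0.78 ± 0.14 SE, edgeR adjusted p = 0.0054), and this call was lost when number 3 was left out (log2 0.67, edgeR adjusted p = 0.0987). Ratios within numbers 1 to 4 were 1.31, 2.03, 2.19 and 1.51.

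Rdh10 (ENSMUSG00000025921, chr1:16105774-16133734, plus strand) encodes the enzyme of the first step. Its values were 48.2, 30.9, 56.9 and 76.2 CPM in PDGFRα- libraries 1 to 4 and 78.6, 152, 103 and 94.0 CPM in PDGFRα+ libraries 1 to 4. The ranges came close to touching, with the highest PDGFRα- library at 76.2 CPM and the lowest PDGFRα+ library at 78.6 CPM. Means were 53.1 ± 18.9 and 107 ± 31.8 CPM, a 2.02-fold difference (log2 1.01 ± 0.27 SE, 95% interval 0.44 to 1.59) that did not pass in either fit (edgeR adjusted p = 0.217, and 0.190 with the block). Number 2 stood apart, with a ratio of 4.93 against 1.63, 1.81 and 1.23 in numbers 1, 3 and 4. Without number 2 the blocked log2 difference was 0.63 and passed (edgeR adjusted p = 0.0498). Without number 1, 3 or 4 the blocked difference did not pass (edgeR adjusted p = 0.33, 0.422 and 0.0568).

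Aldh1a1 (ENSMUSG00000053279, chr19:20492715-20643465, plus strand), the third retinaldehyde dehydrogenase gene, stood at 109, 209, 121 and 96.9 CPM in PDGFRα- and 105, 164, 96.5 and 118 CPM in PDGFRα+ libraries. The groups overlapped, and library 2 was the highest of each. The log2 difference was -0.15 ± 0.24 SE (95% interval -0.67 to 0.38, edgeR adjusted p = 0.978), so these libraries leave room for a modest change in either direction.

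**Figure D1:**
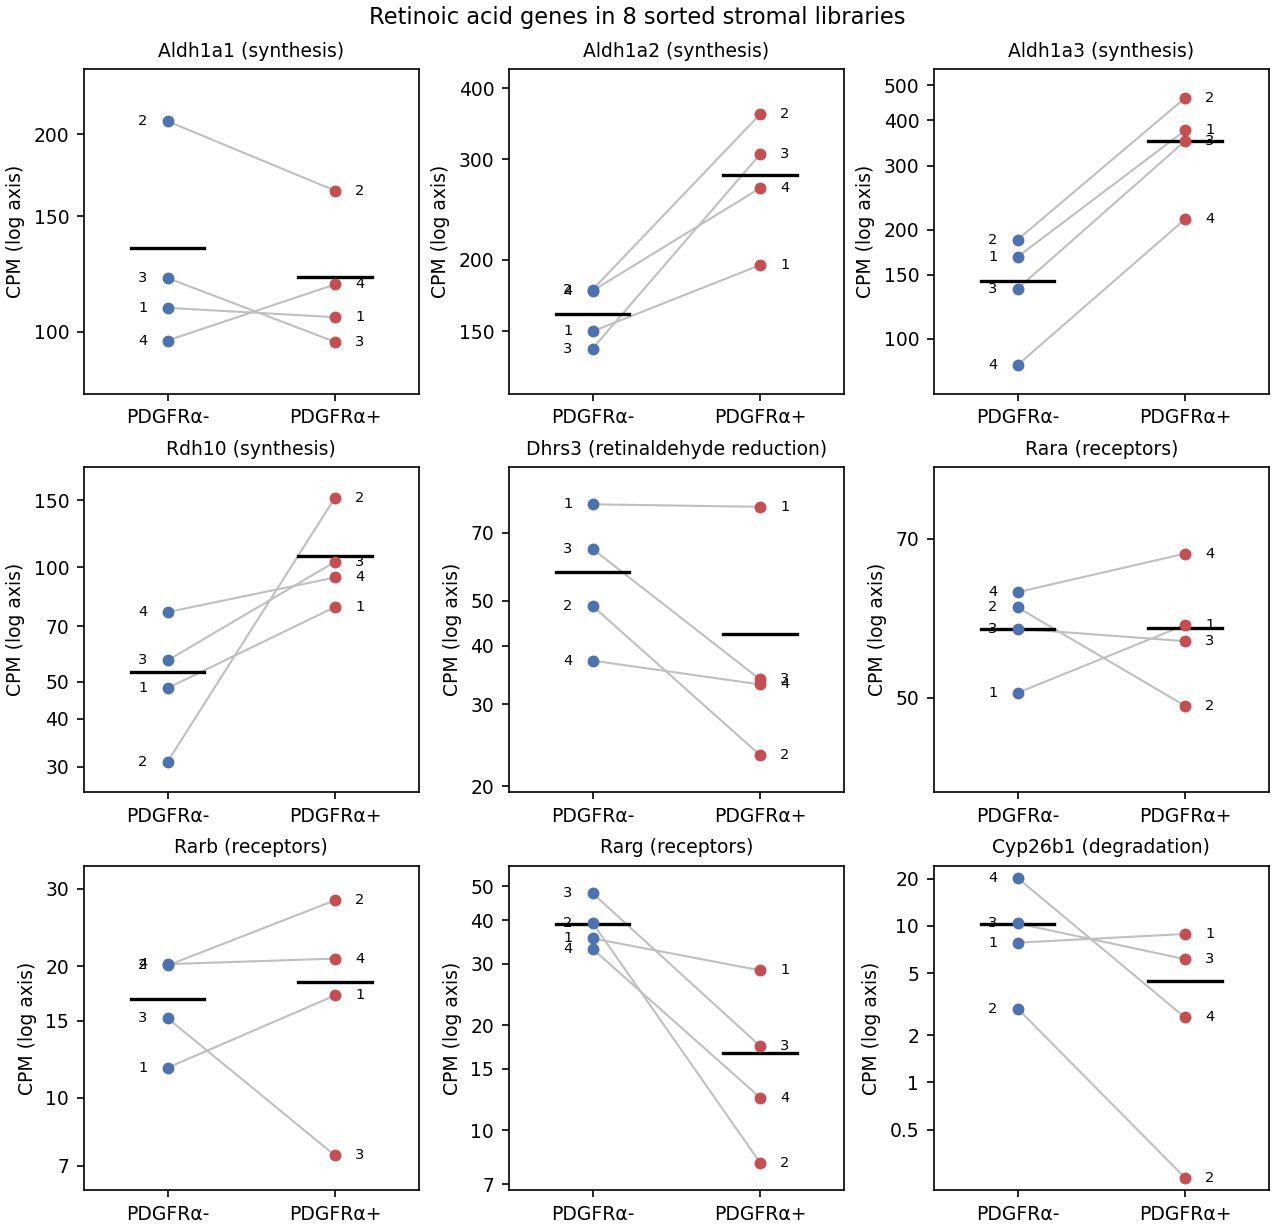
CPM of each of the 9 genes on log axes, 1 point per library labelled by its replicate number, grey lines joining same-numbered libraries and black bars at the group means (n = 4). Every PDGFRα+ point lies above every PDGFRα- point for Aldh1a2, Aldh1a3 and Rdh10, and below for Rarg.

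Of the receptor genes, Rarg stood lower in every PDGFRα+ library, and Rara and Rarb overlapped between the groups. Rarg (ENSMUSG00000001288, chr15:102234938-102257517, minus strand) encodes RARγ and stood at 35.5, 39.3, 47.8 and 33.1 CPM in PDGFRα- libraries 1 to 4 and at 28.7, 8.07, 17.4 and 12.4 CPM in PDGFRα+ libraries 1 to 4. PDGFRα+ library 1 came nearest to the PDGFRα- range and library 2 was the farthest from it. Means were 38.9 ± 6.45 and 16.7 ± 8.90 CPM, 2.33-fold lower in PDGFRα+ libraries (log2 -1.22 ± 0.33 SE, 95% interval -1.93 to -0.51, edgeR adjusted p = 0.226). With the block, Rarg fell 2.57-fold (log2 -1.36 ± 0.28 SE, edgeR adjusted p = 0.0181). That call was lost without number 3 (log2 -1.33, edgeR adjusted p = 0.156) and without number 4 (log2 -1.34, edgeR adjusted p = 0.0540). Ratios within numbers 1 to 4 were 0.810, 0.205, 0.365 and 0.375.

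Rara (ENSMUSG00000037992, chr11:98927818-98974942, plus strand), which encodes RARα, showed the smallest difference of the 9 genes. It stood at 50.5, 60.5, 57.9 and 62.5 CPM in PDGFRα- and 58.3, 49.2, 56.4 and 67.8 CPM in PDGFRα+ libraries. The log2 difference was 0.00 ± 0.17 SE (95% interval -0.37 to 0.37, edgeR adjusted p = 1). Rarb (ENSMUSG00000017491, chr14:16430839-16819156, minus strand), which encodes RARβ and carries the DR5 shown above, stood at 11.7, 20.1, 15.2 and 20.2 CPM in PDGFRα- and 17.1, 28.3, 7.39 and 20.8 CPM in PDGFRα+ libraries. PDGFRα+ libraries held both the highest and the lowest value, and the log2 difference was 0.13 ± 0.36 SE (95% interval -0.65 to 0.91, edgeR adjusted p = 0.991). Exons of Rarb overlap those of Top2b and Gm48162 on the other strand, so its reads may include theirs if counting ignored strand.

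Dhrs3 (ENSMUSG00000066026, chr4:144892827-144928209, plus strand) stood at 80.5, 48.7, 64.6 and 37.2 CPM in PDGFRα- and 79.5, 23.3, 33.9 and 33.1 CPM in PDGFRα+ libraries. The groups overlapped through library 1, and the PDGFRα+ library was the lower in 4 of 4 same-numbered pairs, by very little in number 1. The log2 difference was -0.44 ± 0.37 SE (95% interval -1.25 to 0.37, edgeR adjusted p = 0.942). With the block it was -0.54 ± 0.20 SE (95% interval -0.96 to -0.13, edgeR adjusted p = 0.222). Cyp26b1 (ENSMUSG00000063415, chr6:84571414-84593908, minus strand), which encodes a hydroxylase that clears retinoic acid, was the lowest of the 9 genes, with 192, 59, 133 and 403 counts in PDGFRα- and 310, 6, 190 and 35 counts in PDGFRα+ libraries. In CPM these were 7.82, 2.97, 10.4 and 20.3 against 8.88, 0.246, 6.13 and 2.60. The spread within each group was close to the size of its mean, at 10.4 ± 7.28 and 4.47 ± 3.81 CPM. Leaving out 1 library at a time gave log2 differences of -0.94 to -0.23 for Dhrs3, the lowest without PDGFRα+ library 1 and the highest without PDGFRα- library 1. For Cyp26b1 they ran from -1.78 without PDGFRα+ library 1 to -0.64 without PDGFRα- library 4. With all libraries, the Cyp26b1 log2 difference of -1.20 ± 0.84 SE did not pass (95% interval -3.06 to 0.65, edgeR adjusted p = 0.910). Nor did that with the block (-1.67 ± 0.62 SE, 95% interval -3.0 to -0.33, edgeR adjusted p = 0.255).

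Set side by side, 3 of the 4 synthesis genes stood higher in PDGFRα+ libraries without overlap, and none of the 5 genes of reduction, sensing and degradation did. The CPM of the groups did not overlap for 3 of 4 synthesis genes, all higher in PDGFRα+ libraries, against 2.69% of all tested genes. Of the 5 other members, 1, Rarg, was lower without overlap, against 2.36% of all tested genes. By edgeR with group only, 0 of the 9 genes passed an adjusted p of 0.05, against 0.243% of all tested genes (0.192% higher and 0.0511% lower). At an unadjusted p below 0.05 there were 3 higher and 1 lower, against 3.73% and 3.22% of all tested genes. Of the other tools with group only, DESeq2 called 2 higher and 1 lower, against 0.899% and 0.669% of the genes it tested, and limma-voom called 0. With the block, edgeR called 2 of 9 higher (Aldh1a2 and Aldh1a3), against 1.34% of all tested genes, and 1 lower (Rarg), against 0.933%, or 2.27% in either direction. The median log2 difference was 0.91 over the 4 synthesis genes, 0.00 over the 3 receptor genes and -0.44 over the receptor, reducing and degrading genes together, beside -0.01 over all tested genes. The difference between these medians was not tested.

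In the authors' deposited table, 4 of the 9 genes had an adjusted p of at most 0.05, in a comparison that called 2.30% of 16785 genes higher and 2.52% lower. These were Aldh1a3 (log2 1.27, adjusted p = 3.69e-26), Aldh1a2 (log2 0.77, adjusted p = 1.31e-05) and Rdh10 (log2 1.01, adjusted p = 0.00283) as higher and Rarg (log2 -1.38, adjusted p = 0.000446) as lower, all in the authors' deposited table. Cyp26b1 had a log2 of -1.71 there with an adjusted p of 0.0605, and Dhrs3 -0.56 with 0.149, in the authors' deposited table.

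**Figure D2:**
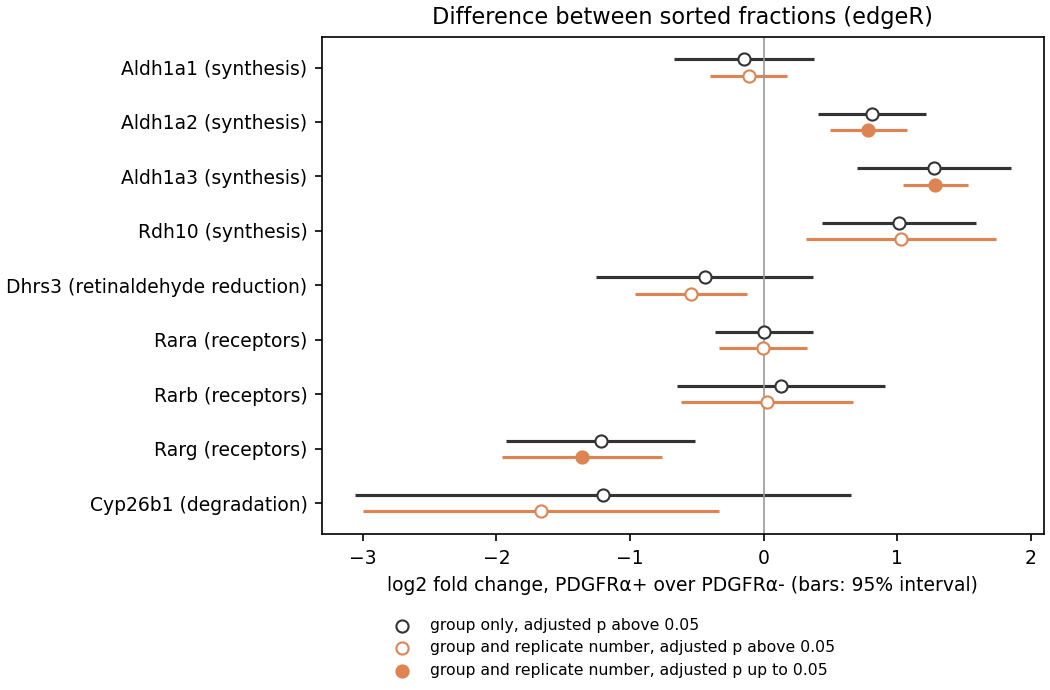
log2 fold change of PDGFRα+ over PDGFRα- libraries for the 9 genes with 95% intervals, from edgeR fits without and with the replicate number as a term. Intervals of Aldh1a2, Aldh1a3, Rdh10 and Rarg lie away from 0 in the fit with group only, and those of the other 5 genes lie across it. In the fit with the replicate number, the intervals of Dhrs3 and Cyp26b1 also lie away from 0, though neither gene passed. Filled points passed an adjusted p of 0.05.

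Levels of different genes can be compared only per length, and for this counts were divided by the exon length of each gene and scaled to 1000000 over all genes. On this scale Aldh1a2 was the highest of the 9 in both groups, at 112 ± 18.3 in PDGFRα- and 215 ± 65.5 in PDGFRα+ libraries. In PDGFRα- libraries it was followed by Aldh1a3 at 48.6 ± 13.7, Aldh1a1 at 42.7 ± 16.8, Dhrs3 at 30.5 ± 8.25, Rara at 21.0 ± 3.74 and Rdh10 at 20.3 ± 8.40. The lowest there were Rarg at 14.5 ± 3.52, Rarb at 5.08 ± 1.52 and Cyp26b1 at 3.11 ± 2.35. Of the 8 pairs of neighbours in that order, the ranges were separate between Aldh1a2 and Aldh1a3 and between Rarg and Rarb, and overlapped in the others.

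In PDGFRα+ libraries the per-length order after Aldh1a2 was Aldh1a3 at 129 ± 40.6, Rdh10 at 44.4 ± 15.5, Aldh1a1 at 42.0 ± 12.3, Dhrs3 at 23.8 ± 11.7 and Rara at 22.6 ± 3.20. It ended with Rarg at 6.47 ± 2.93, Rarb at 5.96 ± 3.00 and Cyp26b1 at 1.37 ± 1.11. Neighbours had separate ranges between Aldh1a3 and Rdh10, between Rara and Rarg, and between Rarb and Cyp26b1. Rdh10 thus took the third place in this group and the sixth in the other, and Rarg came down to the level of Rarb. Among all tested genes, the per-length level of Rdh10 went from percentile 83.9 in PDGFRα- to 92.8 in PDGFRα+ libraries, that of Aldh1a3 from 94.2 to 98.0 and that of Rarg from 76.8 to 53.8. With the longest transcript as length, Aldh1a1 stood above Aldh1a3 in PDGFRα- libraries (81.1 and 59.2) and above Rdh10 in PDGFRα+ libraries (79.6 and 46.6), and Rarb above Rarg in PDGFRα+ libraries (9.15 and 8.48). Aldh1a2 kept the highest mean in both groups on that length. In PDGFRα- libraries its range (81.1 to 118) then overlapped that of Aldh1a1 (56.5 to 126).

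The makeup of the 2 small families differed between the groups in the shares of Aldh1a1, Rara and Rarg. The per-length levels of the 3 retinaldehyde dehydrogenase genes summed to 167 to 253 in PDGFRα- and 284 to 522 in PDGFRα+ libraries, without overlap. Aldh1a1 took 20.5% ± 4.25 of that sum in PDGFRα- libraries (16.9% to 26.3%) and 11.0% ± 1.78 in PDGFRα+ libraries (8.47% to 12.7%), which did not overlap. The Aldh1a2 share was close in both, at 55.5% ± 8.10 and 55.4% ± 7.25. The Aldh1a3 share was 24.0% ± 5.73 and 33.7% ± 7.52, with overlapping ranges. Among the receptor genes the sum was 40.5 ± 7.57 and 35.0 ± 2.67, and overlapped. Rara made up 51.9% ± 2.79 of it in PDGFRα- and 64.4% ± 6.39 in PDGFRα+ libraries, and Rarg 35.7% ± 4.71 and 18.6% ± 8.56, both without overlap. Rarb held 12.4% ± 2.43 and 17.1% ± 8.97, with overlap. Shares within a library are tied to each other, and they were given no test.

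**Figure D3:**
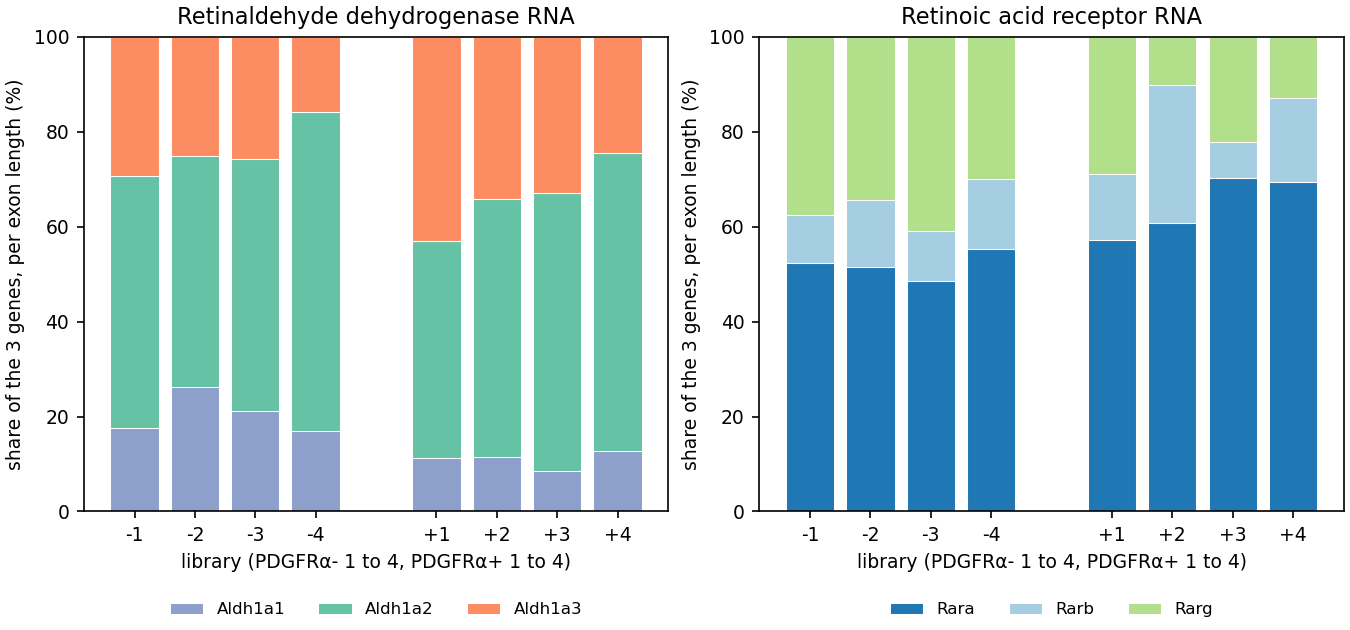
Stacked bars of the share in percent of each gene in the per-length sum of its family, 1 bar per library, for the retinaldehyde dehydrogenase genes and the retinoic acid receptor genes. The Aldh1a1 share is lower in each PDGFRα+ library (8.47% to 12.7%) than in any PDGFRα- library (16.9% to 26.3%), and so is the Rarg share.

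Within the PDGFRα+ group, libraries 1 and 2 lay at opposite ends for many of the 9 genes. Library 1 was the highest of the 4 for Dhrs3, Rarg and Cyp26b1 and the lowest for Aldh1a2 and Rdh10. Library 2 was the highest for all 4 synthesis genes and Rarb, and the lowest for Dhrs3, Rara, Rarg and Cyp26b1. Relative to the group mean, library 1 stood at log2 0.91 for Dhrs3 and 0.79 for Rarg and library 2 at -0.86 and -1.04, while for Rdh10 the values were -0.45 and 0.51. Subset markers differed between the same libraries and between the groups. The 8 telocyte markers, which name a PDGFRα-rich cell beneath the epithelium, summed to 105 to 112 CPM in PDGFRα- libraries and to 143, 208, 171 and 202 CPM in PDGFRα+ libraries 1 to 4. With group only edgeR called 1 of them higher (Wnt4), against 0.192% of all tested genes. With the block it called 3 (Bmp5, Wnt4 and Frzb), against 1.34%. Foxl1, a defining marker, was at 0 in all libraries. The list did not move as one. Wnt5a averaged 35.0 ± 5.11 CPM in PDGFRα- and 24.8 ± 3.97 CPM in PDGFRα+ libraries and was lower in 4 of 4 pairs (log2 -0.50, edgeR adjusted p = 0.653). Only Wnt4 and Frzb stood higher in every PDGFRα+ library than in any PDGFRα- library, against 2.69% of all tested genes. Bmp5, Bmp7, Wnt5a, F3 and Sox6 overlapped between the groups. The 7 trophocyte and adventitial fibroblast markers summed to 1555 to 2203 CPM in PDGFRα- libraries. In PDGFRα+ libraries 1 to 4 their sums were 1399, 966, 1110 and 1035 CPM. By edgeR 0 of them were lower with group only. With the block 3 were lower (Cd81, Grem1 and Rspo3), against 0.933% of all tested genes. Grem1 alone averaged 1061 CPM in PDGFRα- and 534.5 CPM in PDGFRα+ libraries. Rspo3, Pi16, Ackr4, Cd34 and Dpp4 overlapped between the groups. PDGFRα+ library 1 thus had the lowest telocyte sum and the highest trophocyte sum of its group, but single markers did not all follow. Within that group, Bmp5, Wnt4 and Sox6 were lowest in library 1, Frzb and Wnt5a were highest there, and Bmp7 and F3 lay between. Of the trophocyte list, Cd81, Grem1 and Ackr4 were highest in library 1, Pi16 was lowest there, and Rspo3, Cd34 and Dpp4 lay between. Grem1, at 779 CPM, made up most of the trophocyte sum of library 1. The part of these markers in the results for the 9 genes was not tested. Without PDGFRα- library 4, the one with the high endothelial markers, the log2 differences with group only were 0.86 for Aldh1a2, 1.09 for Aldh1a3, 1.25 for Rdh10 and -1.28 for Rarg. That of Cyp26b1, whose highest value was in that library, went from -1.20 to -0.64.

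**Figure D4:**
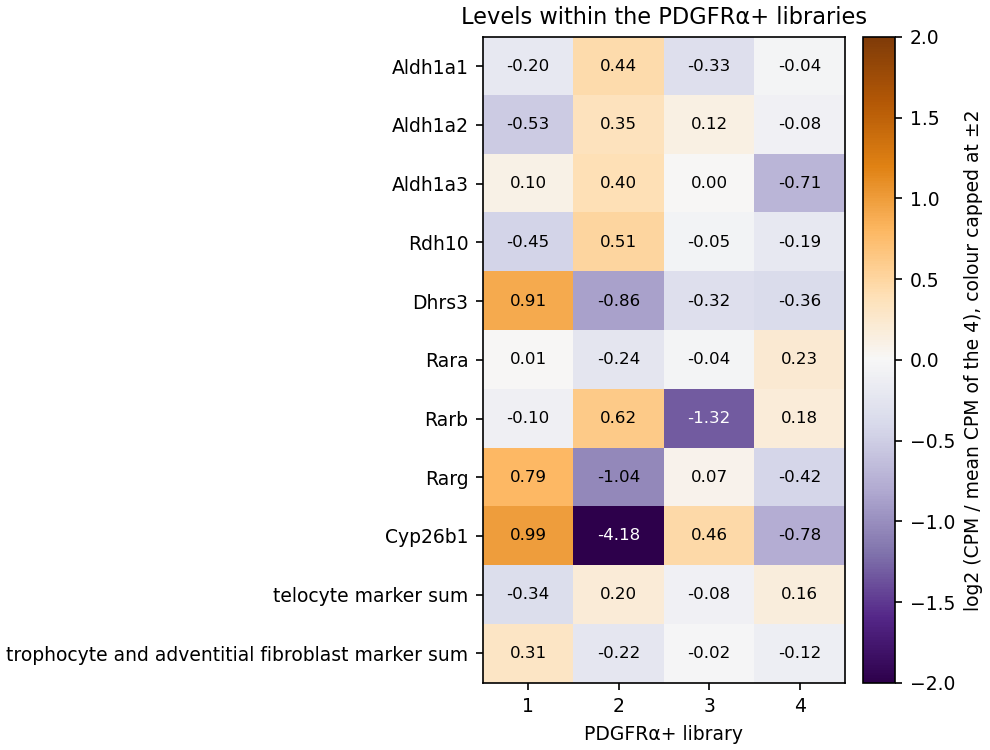
Heat map with 1 cell per PDGFRα+ library and row, coloured and labelled by log2 of the CPM over the mean of the 4 libraries, for the 9 genes and for the summed CPM of 2 marker lists. Libraries 1 and 2 lie at opposite ends for Dhrs3, Rarg, Cyp26b1, Aldh1a2 and Rdh10.

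Beyond the 9 genes, 72 other genes of retinoid handling and response were listed, of which 71 were found and 46 tested. By edgeR with group only, 0 of the 46 passed. At an unadjusted p below 0.05 there were 2 higher and 3 lower, where all tested genes had 3.73% and 3.22%. DESeq2 with group only called 0 higher and 1 lower, against 0.899% and 0.669% of the genes it tested. With the block edgeR called 2 higher and 2 lower, where all tested genes had 1.34% and 0.933%. The median log2 difference with group only was -0.08. Both genes that fell with the block act before the retinaldehyde dehydrogenases. Stra6l, which encodes a receptor for the retinol-binding protein RBP4, stood at 3.79, 2.77, 9.83 and 12.1 CPM in PDGFRα- libraries and was at or near 0 in PDGFRα+ libraries, with 19, 0, 14 and 0 counts (edgeR adjusted p = 0.124, and 0.0201 with the block). Adh1, which encodes an alcohol dehydrogenase that accepts retinol, stood at 122, 168, 120 and 83.4 CPM in PDGFRα- and 60.0, 77.4, 94.1 and 66.4 CPM in PDGFRα+ libraries, which overlapped. Its log2 difference was -0.73 ± 0.21 SE (edgeR adjusted p = 0.297), and -0.71 ± 0.16 SE with the block (edgeR adjusted p = 0.0280).

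Of the 11 response genes tested, 6 had a positive and 5 a negative log2 difference with group only. Their median was 0.02 with group only and -0.04 with the block. The response genes Rarres2, which encodes the chemoattractant chemerin, and Hic1, which encodes a transcriptional repressor, rose with the block. Rarres2 averaged 150 ± 22.5 CPM in PDGFRα- and 224 ± 41.9 CPM in PDGFRα+ libraries (blocked log2 0.57 ± 0.13 SE, edgeR adjusted p = 0.0335, and 0.297 with group only). Hic1 averaged 53.1 ± 10.4 and 79.2 ± 7.26 CPM (blocked log2 0.59 ± 0.15 SE, edgeR adjusted p = 0.0468, and 0.340 with group only). Exons of Rarres2 overlap Lrrc61, and those of Adh1 overlap Gm16559.

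Of the most abundant genes of the lists, those named next passed in neither fit. Lrp1, which takes up lipoprotein remnants that carry vitamin A, averaged 3182 ± 892 CPM in PDGFRα- and 2967 ± 603 CPM in PDGFRα+ libraries. The RXR partner gene Rxra averaged 76.4 ± 12.8 and 83.6 ± 14.4 CPM. Tgm2, a transglutaminase gene known to respond to retinoic acid, averaged 538 ± 125 and 671 ± 128 CPM and was higher in 4 of 4 pairs (blocked edgeR adjusted p = 0.197). Aldh2, a mitochondrial aldehyde dehydrogenase gene, averaged 236 ± 28.0 and 255 ± 34.6 CPM, and Cyp2s1 stayed below 1 CPM on average in both groups. Lrat, whose enzyme stores retinol as esters, was picked after its values were seen. It averaged 113 ± 24.8 and 120 ± 32.2 CPM and passed the threshold in neither fit. In all, 7 listed genes had 0 counts in every library, among them Cyp26a1. That is not read as absence, because the mitochondrial gene mt-Co2 was also at 0 while mt-Co1 was abundant.

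**Figure D5:**
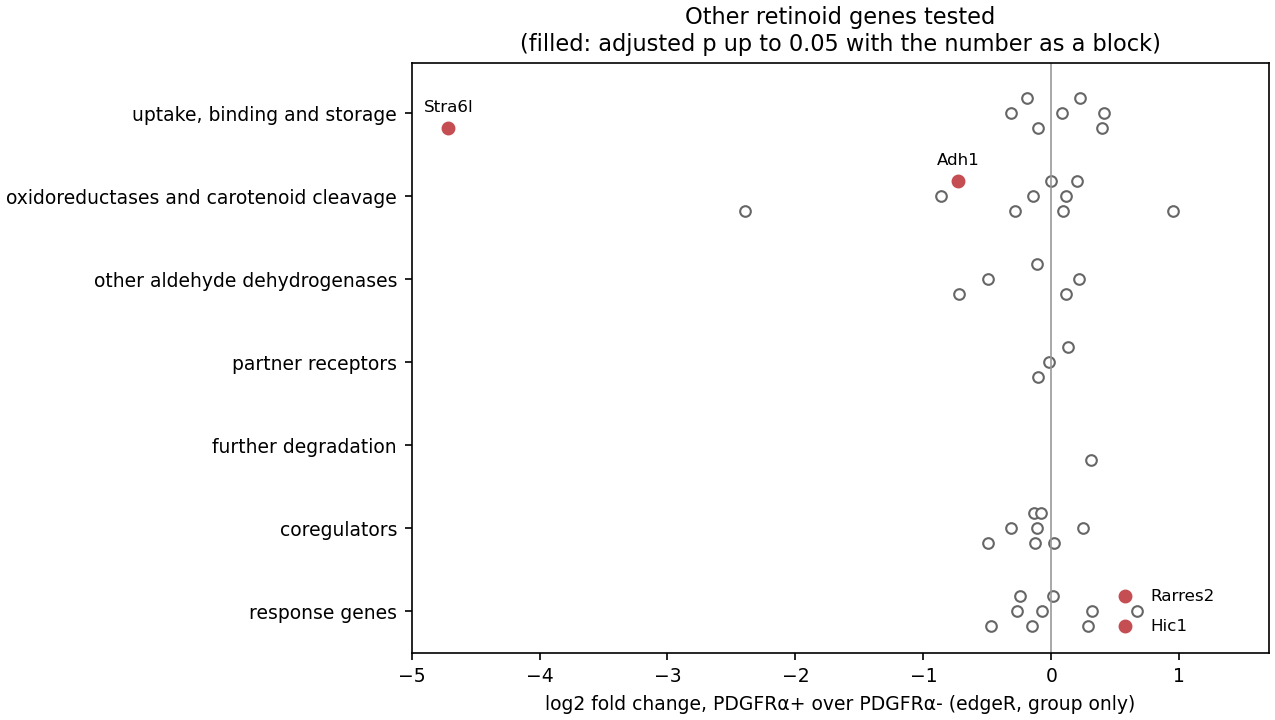
log2 fold change of PDGFRα+ over PDGFRα- libraries (edgeR, group only) for the 46 other retinoid genes tested, by list, with filled points for genes past an adjusted p of 0.05 in the blocked fit. The filled points are Stra6l and Adh1 on the lower side and Rarres2 and Hic1 on the higher side.

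As a description of which genes ran alongside, log2 CPM over the 8 libraries was compared with 6249 tested genes of at least 20 CPM on average. All points share the same libraries, group difference and replicate numbers. Aldh1a3 ran closest to Glipr2 (Pearson r = 0.99), the fibronectin gene Fn1 (0.98) and the basement membrane collagen gene Col4a1 (0.97). Aldh1a2 was closest to Gpr161 (0.97), Adamts14 (0.97) and the eotaxin gene Ccl11 (0.96), and Rdh10 to the proteoglycan gene Cspg4 (0.98), Igfbp3 (0.96) and Arvcf (0.96). Aldh1a1, which differed little between the groups, was closest to Senp1 (0.99), Nsrp1 (0.94) and Mamld1 (0.93). Dhrs3 ran close to Slc48a1 (0.96) and Nop56 (0.95). Rarg ran closest to Fnta (0.97), Sec23a (0.95) and Cx3cr1 (0.94), and Rara to Cldnd1 (0.96), Gm47283 (0.96) and Macrod2 (0.96). Cyp26b1 was closest to Rnf19b (0.96), Ubac1 (0.96) and Kalrn (0.96). Rarb had the weakest neighbours, Pitpnm2 (0.93), Fam172a (0.87) and Wasl (0.86).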

How the data were processed

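Per the labels' protocols, sorted cells were lysed and stranded total RNA libraries for very small inputs (SMARTer Pico) were sequenced on an Illumina NextSeq. The submitters' processing notes name GRCm38 (mm10) and list featureCounts 2.0.1, STAR 2.7.3a, DESeq2 and cutadapt 3.4, without the strand setting or annotation. Raw read counts per gene and library were deposited by the authors. The same deposited table holds the authors' size-factor scaled values, read as a score and not tested, a fold change, a log2 fold change, p-values and dispersions, which were used only where named. Of 53801 identifiers, 53706 are in GENCODE M21, which gave positions and exon lengths (longest transcript as the alternative), and 24547 rows were at 0 throughout.

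Counts were tested with edgeR 4.0.16 in R 4.3.3 (TMM, filterByExpr, robust quasi-likelihood, 15643 genes), with Benjamini-Hochberg adjustment over all tested genes and a threshold of 0.05. Alternatives were a replicate block, DESeq2 1.42.0, limma-voom (limma 3.58.1), RLE size factors, library totals, no filter and leaving out libraries. The scripts' tests were tried on simulated data. The deposited dispersions matched a DESeq2 model with number and group within 0.00087% over 29254 genes, so the blocked fit is printed beside the main one. The labels do not state what libraries of the same number share.

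Total counts per library, in units of 1000000, were 12.9 to 35.1. No pair of libraries was a repeat of the same one (chi-square divided by its degrees of freedom, 35.7 to 154). Reads were amplified and carry no molecular identifiers, so a read is not an independent molecule. Similar genes used log2 CPM with a prior count of 2. All 9 members were named, with, for each, the 3 most similar genes, and of the other retinoid genes those past the threshold in either fit and the most abundant per list, except a few that are not reported here. The members and lists were chosen with earlier results of these data known.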

Additional observations from a re-analysis of the deposited data

How the results depend on the processing

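With the replicate number as a block, calls went from 38 to 355 over all genes by edgeR (809 by DESeq2), from 0 to 3 of the 9 members (4 by DESeq2) and from 0 to 4 of the other retinoid genes (5 by DESeq2). Deviations of same-numbered libraries correlated at 0.231, 0.182, 0.023 and 0.248 over 15643 genes, which does not establish pairing, and 669 genes passed a test of the number. Leaving out a number under the block gave 196, 281, 99 and 300 calls over all genes for numbers 1 to 4, 1 to 4 members and 0 to 2 other retinoid genes. With group only, the counts were 277, 4 and 2 without the low-count filter, and 272, 3 and 1 with DESeq2, in the same order. Leaving out a library gave 7 to 49 calls over all genes and 0 to 1 members, and library totals gave 1 member, Aldh1a3. Over 19 alternatives Aldh1a2, Aldh1a3, Rdh10, Dhrs3, Rarg and Cyp26b1 kept their direction, with Dhrs3 from -0.94 to -0.23 and Cyp26b1 from -1.78 to -0.64 over left-out libraries. Aldh1a1 turned to 0.15 without PDGFRα- replicate 2, within -0.33 to 0.15 over all left-out libraries. Rara turned to -0.012 with RLE, -0.011 with DESeq2, -0.014 with limma-voom, -0.003 with the edgeR block and -0.015 with the DESeq2 block. It ran from -0.079 to 0.073 over the left-out libraries, and under the block it was -0.076 without number 1 and -0.043 without number 4. Rarb turned to -0.06 with limma-voom, ran from -0.16 to 0.40 over the left-out libraries, and under the block was -0.16 and -0.13 without numbers 1 and 2. The causes were not tested. With the longest transcript as length, Aldh1a1 shares were 32.7% in PDGFRα- and 18.6% in PDGFRα+ libraries, Aldh1a2 shares 42.8% and 45.0%, and in PDGFRα- libraries the Rara share was 48.0% and the Rarb share 15.1%. Counts of Cyp26b1 ran as low as 6, in PDGFRα+ library 2, which limits the precision of that value.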
